A study of Mus musculus with 6 samples.

Results

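The 8 genes described here make, carry and sense leukotrienes or encode the microsomal glutathione transferases related to leukotriene C4 synthase. They were chosen by gene symbol among the 40213 symbols counted in mouse bone marrow-derived macrophages, and all 8 had enough counts to be tested. Alox5, Alox5ap, Lta4h and Ltc4s serve leukotriene synthesis, Mgst1, Mgst2 and Mgst3 are the microsomal transferases, and Cysltr1 is a leukotriene receptor.

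Leukotrienes are lipid mediators that leukocytes make from arachidonic acid released from membrane phospholipids. The 5-lipoxygenase Alox5, presented with its substrate by the membrane protein Alox5ap, forms the unstable epoxide LTA4. Lta4h hydrolyses LTA4 to LTB4, a chemoattractant of neutrophils, whereas Ltc4s joins LTA4 to glutathione to give LTC4, the parent of the cysteinyl leukotrienes. Ltc4s, Alox5ap, Mgst1, Mgst2, Mgst3 and the prostaglandin E synthase Ptges belong to one family of small membrane proteins, named MAPEG, and most of its enzymes use glutathione. Macrophages are among the cells known to make leukotrienes.

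Marrow of C57BL/6 mice was cultured for 4 days with macrophage colony-stimulating factor (M-CSF, 25 ng/ml) and 10% serum, so all samples are primary macrophages grown in M-CSF. For 24 h, 3 MNP samples then received polystyrene micro- and nanoplastics (MNP, 50 µg, with particle size and volume not given in the sources used here), and 3 control samples received no particles. The labels do not tell whether the samples of a group were separate cultures or animals, so the p-values measure the spread between these samples, which may be technical. The title of the series turns the comparison towards glutathione metabolism, on which LTC4 synthesis and the microsomal transferases draw.

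Library totals ran from 20262859 to 23042146 counts. Levels are given as scaled CPM, counts relative to library totals that were corrected by TMM factors (CPM). In these libraries 3 counts were worth 0.127 to 0.145 scaled CPM. MNP sample 1 stood apart from the other 5 libraries, with 1.02% of its counts in the structural RNA Gm26917 against 0.251% to 0.444%, and on the second principal component (32.6 against -18.9 to 10.8). Genes with a count numbered 24062, 20935 and 20222 in controls 1 to 3 and 18672, 18655 and 18240 in MNP samples 1 to 3. Every control thus held more such genes than any MNP sample, and control 1 the most. All 10 macrophage markers listed, among them Csf1r, Adgre1 and Lyz2, were counted in every library. Their summed level was 19163 to 19866 scaled CPM in controls and 17042 to 18059 in MNP samples. Of these 10 markers 5 fell, beside 8.35% of all tested genes.

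After MNP treatment Alox5ap, Mgst1 and Mgst2 rose, Cysltr1 fell, and Alox5, Lta4h, Ltc4s and Mgst3 did not pass the test. Alox5ap rose 1.83-fold, Mgst1 2.25-fold and Mgst2 3.19-fold, and Cysltr1 was 1.32-fold lower. A gene is said to rise or fall where the edgeR quasi-likelihood test gave an adjusted p under 0.05 over the 12893 genes tested. By that criterion 17.5% of all tested genes changed, 9.11% higher and 8.35% lower, beside 4 of the 8 genes described here. Changes of at least 2-fold made up 3.58% of all tested genes and 2 of the 8, Mgst1 and Mgst2. The control and MNP values did not overlap for 5 of the 8 genes, and for 34.6% of all tested genes. The median log2 fold change was 0.57 over the 8 genes and -0.01 over all tested genes. The 8 genes were chosen with earlier results of these data known, so these figures only describe them. In bulk RNA, fewer cells of a type and less RNA per cell cannot be told apart.

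**Figure D1:**
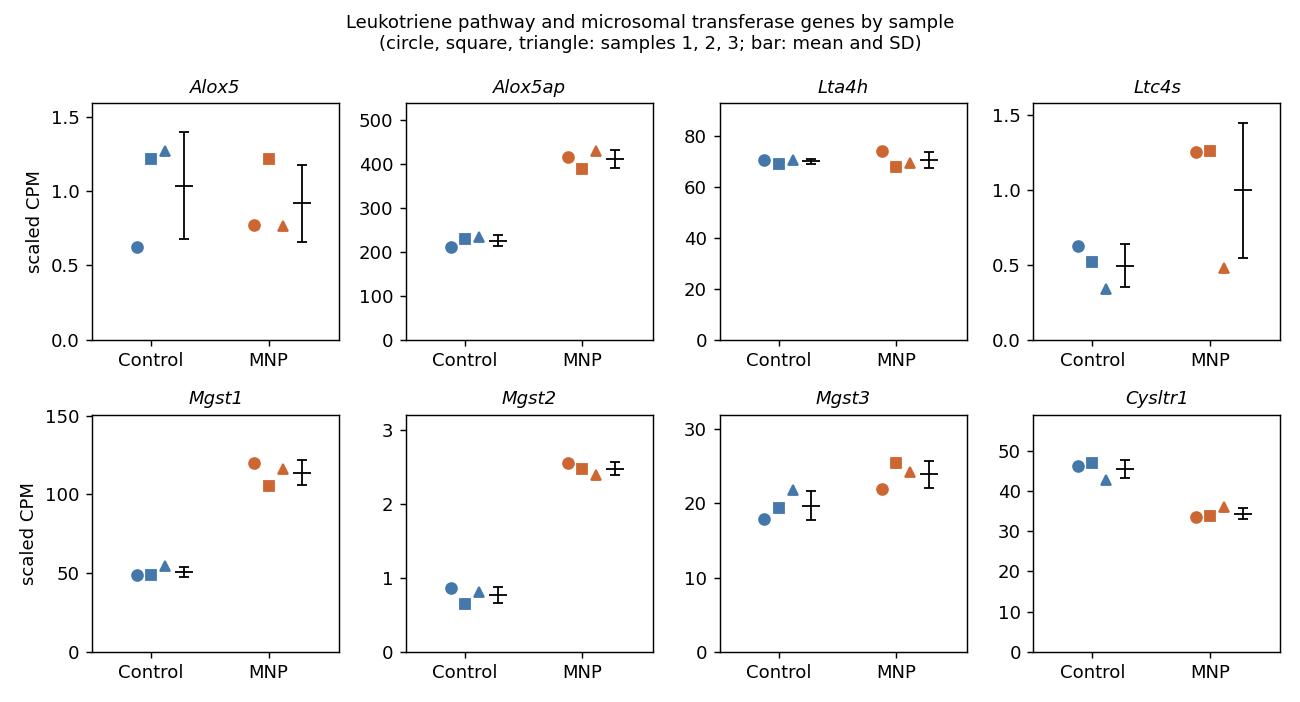
Scaled CPM (vertical axes, each starting at 0) of the 8 genes in the 3 control samples (blue) and the 3 MNP samples (orange), with circles, squares and triangles for samples 1, 2 and 3 and black bars for the mean and SD. Alox5ap, Mgst1 and Mgst2 lie higher in every MNP sample than in any control, Cysltr1 lies lower, and Lta4h lies between 68.0 and 74.3 in all 6 samples.

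The first step of the pathway rests on Alox5 and Alox5ap, whose transcripts stood at very different levels. Alox5ap, the membrane partner that hands arachidonic acid to the lipoxygenase, was at 212, 230 and 235 scaled CPM in controls 1 to 3 and at 416, 390 and 431 in MNP samples 1 to 3. All MNP values lay far above all controls, with little spread in either group. The group means were 226 ± 12.1 and 412 ± 21.0 scaled CPM (SD, n = 3 each), a log2 fold change of 0.87 ± 0.06 (SE, edgeR adjusted p = 4.29e-07).

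Alox5, the lipoxygenase itself, was close to the counting limit. It had 13, 28 and 30 counts in the controls and 16, 27 and 16 in the MNP samples, or 0.623, 1.22 and 1.27 against 0.773, 1.22 and 0.765 scaled CPM. The lowest value belonged to control 1, and the groups overlapped. The log2 fold change of -0.18 ± 0.43 did not pass (edgeR adjusted p = 0.822), and its 95% interval, from -1.11 to 0.76, spans changes of either sign, so a difference was not detectable at this depth. In RefSeq annotation of GRCm38.p6 Alox5 overlaps the noncoding gene Gm38880, which had 14, 5 and 2 counts in controls and 1, 0 and 1 in MNP samples. Only the spans of these genes were compared. Without a stated strand setting, how reads of any shared stretch were assigned is uncertain. The log2 ratio of Alox5 to Alox5ap was -7.83 ± 0.50 in controls and -8.84 ± 0.45 in MNP samples, a difference of -1.01 (exact two-sided permutation p = 0.2). That was 1 of 3 ratios compared, and the adjusted exact permutation p of each was 0.3, where 3 samples against 3 cannot go below p = 0.1.

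Of the enzymes that use LTA4, Lta4h stayed near a single level and Ltc4s was barely counted. Lta4h, the hydrolase that makes LTB4, was at 70.5, 69.1 and 70.7 scaled CPM in controls and 74.3, 68.0 and 69.5 in MNP samples. MNP sample 1 was the highest, and the MNP values spread to both sides of the controls. The means were 70.1 ± 0.855 and 70.6 ± 3.28 scaled CPM (log2 fold change 0.01 ± 0.06, edgeR adjusted p = 0.934), with a 95% interval from -0.13 to 0.15. The sign of this small difference turned with library totals as the only scaling (-0.08) and without MNP sample 1 (-0.02).

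Ltc4s, the LTC4 synthase, had 13, 12 and 8 counts in controls and 26, 28 and 10 in MNP samples. MNP samples 1 and 2 lay above all controls (1.26 and 1.26 against 0.339 to 0.623 scaled CPM), whereas MNP sample 3, at 0.478, lay among them. The log2 fold change of 1.01 ± 0.51 did not pass (edgeR adjusted p = 0.199, 95% interval -0.08 to 2.11). Mgat4b, a glycosyltransferase gene that lies next to Ltc4s in RefSeq annotation of GRCm38.p6 without overlapping it, had between 618 and 727 counts per control library and between 800 and 933 per MNP library (edgeR adjusted p = 0.00186). Hal beside Lta4h also rose (log2 fold change 1.85, edgeR adjusted p = 0.00279), as did Aldh9a1 beside Mgst3 (0.23, edgeR adjusted p = 0.0177). Marchf8 beside Alox5 and Maml3 beside Mgst2 did not pass. Any part of such neighbours in the counts was not tested. The log2 ratio of Ltc4s to Lta4h, the 2 enzymes that share LTA4 as substrate, was -7.19 ± 0.46 in controls and -6.27 ± 0.79 in MNP samples (difference 0.92, exact two-sided permutation p = 0.3, adjusted p = 0.3).

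The microsomal transferases split, with Mgst1 and Mgst2 higher and Mgst3 short of the threshold. Mgst1, an abundant enzyme of the endoplasmic reticulum and outer mitochondrial membrane with transferase and peroxidase activity, was at 48.8, 48.4 and 54.5 scaled CPM in controls. In MNP samples 1 to 3 it was at 120, 105 and 116. Every MNP value lay far above the highest control. The means were 50.6 ± 3.39 and 114 ± 7.87 scaled CPM (log2 fold change 1.17 ± 0.07, edgeR adjusted p = 1.27e-07).

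Mgst2, which can also conjugate LTA4 with glutathione and is known as the LTC4-forming enzyme of cells that lack Ltc4s, had 18, 15 and 19 counts in controls and 53, 55 and 50 in MNP samples. That corresponds to 0.774 ± 0.109 and 2.48 ± 0.0860 scaled CPM (SD, n = 3 each). The counts were few but even, and the groups were far apart. The log2 fold change was 1.67 ± 0.33 (edgeR adjusted p = 0.00331), with a wide 95% interval from 0.95 to 2.39. In RefSeq annotation of GRCm38.p6 the span of Mgst2 overlaps that of the pseudogene Gm38247, a symbol not among those counted. How reads of any shared stretch were assigned is uncertain.

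Mgst3, a transferase and peroxidase of the same family, was at 17.9, 19.4 and 21.8 scaled CPM in controls and 22.0, 25.5 and 24.2 in MNP samples. The groups nearly touched, with control 3 just under MNP sample 1. Means of 19.7 ± 1.98 and 23.9 ± 1.79 scaled CPM gave a log2 fold change of 0.28 ± 0.10, which missed the threshold (edgeR adjusted p = 0.0803). Without control 3 it passed (0.36, edgeR adjusted p = 0.0443). The log2 ratio of Mgst1 to Mgst3 was 1.36 ± 0.07 in controls and 2.25 ± 0.21 in MNP samples, higher in all 3 MNP samples than in any control (difference 0.89, exact two-sided permutation p = 0.1, the smallest possible, adjusted p = 0.3). On the scale of scaled CPM per kilobase of exon, Mgst1 made up 58.9% ± 0.920 of the summed level of the 3 transferases in controls and 70.5% ± 2.67 in MNP samples. Mgst3 made up 38.3% ± 1.33 and 24.8% ± 2.59, and Mgst2 2.75% ± 0.428 and 4.67% ± 0.217.

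The sequence before the start of the 8 genes was searched for the antioxidant response element, the motif bound by NRF2 with small MAF proteins. The search was made because the title of the series concerns glutathione metabolism, as a description of sequence only. The letters TGACNNNGC were searched on both strands in the 250 bases upstream of each RefSeq start (build GRCm38.p6). Of the 8 genes, 6 had such a sequence, Mgst1 with 2 starts. Of these 7 windows 1 held the motif, before the first start of Mgst1, beside 10.2% of all 32851 windows of that length. The match begins 56 bases before that start and lies on the minus strand, at chr6:138140461-138140490 with its flanks. A GENCODE M21 transcript of Mgst1 holds 211 bases before that start and covers the match if no intron lies between. For this reason only 30 bases are shown, with the motif in capitals. The windows of Mgst2 (chr3:51660929-51661178, plus strand) and Mgst3 (chr1:167393842-167394091, minus strand) hold no match in these letters and are given whole, since these genes have the largest and the smallest fold change among the 3 transferases. The Mgst3 window holds 17 CpG pairs and the Mgst2 window 0. All sequences are written 5′ to 3′ on the strand of the gene.
Mgst1: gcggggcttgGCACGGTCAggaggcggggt
Mgst2: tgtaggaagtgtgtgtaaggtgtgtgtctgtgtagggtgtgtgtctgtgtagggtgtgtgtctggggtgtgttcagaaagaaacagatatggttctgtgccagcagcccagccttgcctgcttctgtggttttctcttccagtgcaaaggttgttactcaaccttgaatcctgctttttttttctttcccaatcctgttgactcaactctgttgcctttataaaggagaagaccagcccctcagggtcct
Mgst3: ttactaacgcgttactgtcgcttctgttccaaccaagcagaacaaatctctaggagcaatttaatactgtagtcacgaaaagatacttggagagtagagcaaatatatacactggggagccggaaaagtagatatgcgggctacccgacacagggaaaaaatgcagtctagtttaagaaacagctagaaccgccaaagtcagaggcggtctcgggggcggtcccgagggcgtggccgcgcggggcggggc
A match describes letters only, and no binding was measured here.

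Cysltr1, the receptor for cysteinyl leukotrienes, was the only one of the 8 genes to fall. It was at 46.3, 47.1 and 42.9 scaled CPM in controls and 33.6, 33.7 and 36.0 in MNP samples. All MNP samples lay below all controls. The means were 45.4 ± 2.25 and 34.4 ± 1.36 scaled CPM (log2 fold change -0.40 ± 0.08, edgeR adjusted p = 0.00235). Gm5127, which overlaps Cysltr1 in RefSeq annotation of GRCm38.p6, had 2 to 12 counts per library, against 695 to 1084 for Cysltr1.

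Per exon length, the order of levels was the same in the 3 samples of each group. These levels, and the transferase shares above, depend on the exon length taken for each gene, a factor common to all samples. Scaled CPM per kilobase of exon, with lengths from GENCODE M21, put Alox5ap first in controls (168 ± 9.01), then Lta4h (34.5 ± 0.421), Mgst1 (27.6 ± 1.85), Mgst3 (18.0 ± 1.80), Cysltr1 (8.84 ± 0.438), Mgst2 (1.28 ± 0.181), Ltc4s (0.759 ± 0.221) and Alox5 (0.368 ± 0.128). In controls no neighbours in this order overlapped over the 3 samples, although Ltc4s and Alox5 were within reach of each other (0.520 to 0.956 and 0.221 to 0.451). In MNP samples Mgst1 (62.0 ± 4.29) stood above Lta4h (34.8 ± 1.62), and the other genes kept their places, again with no overlap between neighbours.

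**Figure D2:**
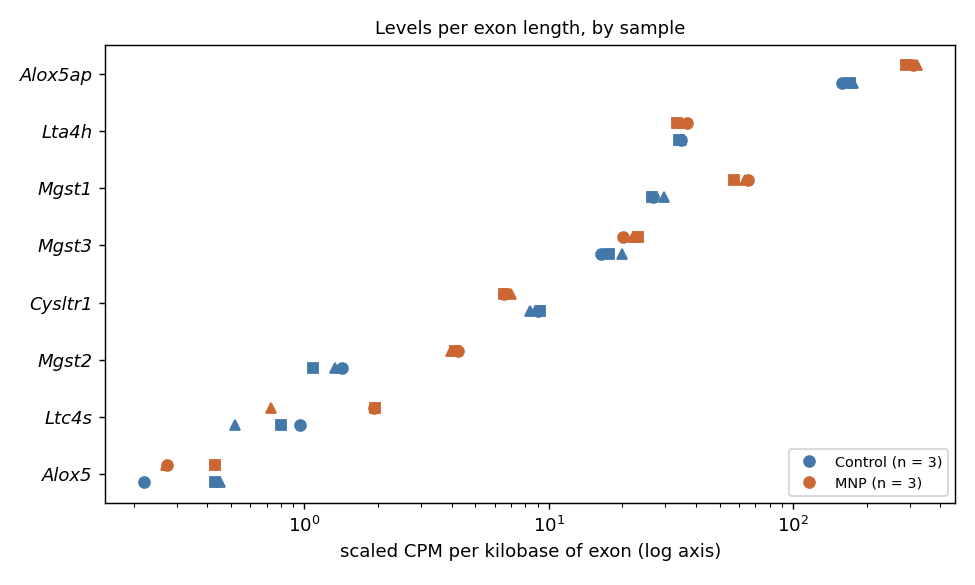
Scaled CPM per kilobase of exon (horizontal log axis) of the 8 genes, with a point for each control sample (blue) and MNP sample (orange) and genes ordered by their control mean. Alox5ap is the highest and Alox5 the lowest in both groups, and Mgst1 passes Lta4h in the MNP samples.

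The genes with the profile most like that of Mgst1, the riser with the smallest p, were Osgin1, Alas1 and Mylip. Likeness was the root mean square distance between profiles of log2(scaled CPM + 0.5), centred on the control mean, over the 6 samples and 9537 candidate genes with a mean of at least 5 scaled CPM. The distances were 0.0451 for Osgin1, an oxidative stress-induced growth inhibitor (log2 fold change 1.20 ± 0.12), 0.0566 for Alas1, the first enzyme of heme synthesis (1.15 ± 0.06), and 0.0646 for Mylip, a ubiquitin ligase for the LDL receptor (1.09 ± 0.07). For Cysltr1 they were Pltp, the phospholipid transfer protein (distance 0.0354), Nt5c3, a nucleotidase (0.0370), and Trim21, an intracellular antibody receptor (0.0435), with log2 fold changes of -0.37 ± 0.06, -0.38 ± 0.09 and -0.40 ± 0.09. Such neighbours share the size of the group difference by construction.

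Around these genes, steps before and after LTA4 also held genes that rose or fell. The counts of each list below, markers included, stand beside 9.11% higher and 8.35% lower over all tested genes. Of 9 tested genes listed around the release and return of phospholipid acyl chains, 3 rose and 0 fell, with a median log2 fold change of 0.10. Not all of them act on arachidonate. Pla2g4a, the cytosolic phospholipase A2 that frees arachidonic acid, went from 49.4 ± 5.99 to 70.3 ± 2.76 scaled CPM (log2 fold change 0.51 ± 0.09, edgeR adjusted p = 0.000974). Pla2g7, a secreted phospholipase that inactivates platelet-activating factor, rose 2.55-fold from 144 ± 13.6 to 369 ± 14.4 scaled CPM. Lpcat3, which puts polyunsaturated acyl chains back into phospholipids, had a log2 fold change of 0.36 ± 0.09 (edgeR adjusted p = 0.0105). The call for Lpcat3 was lost without control 2 or MNP sample 2, where the adjusted p reached 0.0585.

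Of 9 tested genes listed around 5-lipoxygenase, partners and kinases among them, 2 fell (median log2 fold change -0.07). Cotl1, the coactosin-like protein that binds and stabilises 5-lipoxygenase, went from 485 ± 23.7 to 404 ± 25.8 scaled CPM (log2 fold change -0.26 ± 0.06, edgeR adjusted p = 0.0105). Plaat3, a phospholipase and acyltransferase, went from 5.97 ± 1.77 to 3.25 ± 0.410 scaled CPM (-0.88 ± 0.23). Calls of both were lost when single libraries were left out, with adjusted p up to 0.0730 for Cotl1 (without MNP sample 2 or 3) and 0.109 for Plaat3 (without control 2, control 3 or MNP sample 2). Of the other lipoxygenases 2 were tested and 0 passed. Alox15 was at 1.22 ± 0.245 and 1.04 ± 0.391 scaled CPM (edgeR adjusted p = 0.757), and Alox12, named after its values were seen, at 0.927 ± 0.196 and 0.330 ± 0.0871 (edgeR adjusted p = 0.0508).

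Of 11 tested genes listed around export and conversion of leukotrienes 6 rose and 0 fell, with a median log2 fold change of 0.36. Abcc1, the exporter of LTC4 and of glutathione conjugates, was at 163 ± 10.2 scaled CPM in controls and 387 ± 24.2 in MNP samples (log2 fold change 1.24 ± 0.07). The related transporters Abcc4 and Abcc3 rose by 0.92 ± 0.08 and 0.60 ± 0.07 on the log2 scale. Ptgr1, which inactivates LTB4 by oxidising its 12-hydroxyl group, had the smallest p of this list and rose from 29.9 ± 1.61 to 97.0 ± 4.99 scaled CPM (3.24-fold, edgeR adjusted p = 4.95e-09). Abcc2 and Cyp4f16, named after their values were seen, make up the 6, Abcc2 going from 0.905 ± 0.436 to 2.58 ± 0.750 scaled CPM and Cyp4f16 from 14.3 ± 1.85 to 18.3 ± 1.28. Dpep2, a dipeptidase that turns LTD4 into LTE4, was at 207 ± 20.4 and 185 ± 9.88 scaled CPM and did not pass (edgeR adjusted p = 0.157), and was likewise named after its values were seen.

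**Figure D3:**
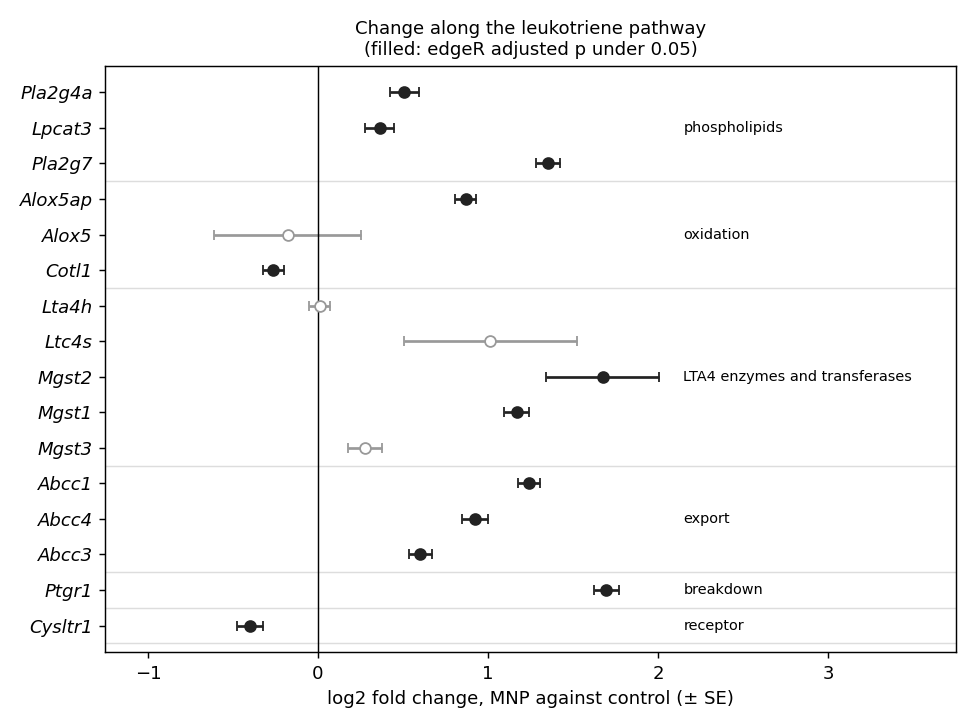
Log2 fold change of MNP against control (horizontal axis, points with SE bars, n = 3 per group) for the 8 genes and for some called genes of the neighbouring steps, ordered from phospholipids to the receptor, with filled points for an edgeR adjusted p under 0.05. Genes that did not pass are drawn only if among the 8. Left out are 6 of 9 tested genes listed around acyl chain release, 6 of 9 around 5-lipoxygenase and 5 of 11 around export and conversion, which did not pass. Alox5, Lta4h, Ltc4s and Mgst3 are open points, whereas Alox5ap, the exporters and Ptgr1 lie to the right of 0 and Cysltr1 to the left.

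Receptors were few. Of the leukotriene receptors only Cysltr1 and Cysltr2 had enough counts to be tested, and Cysltr2, named after its values were seen, was at 3.01 ± 0.736 and 2.06 ± 0.630 scaled CPM (edgeR adjusted p = 0.259). Ltb4r1, the high-affinity receptor for LTB4, had 1, 3 and 5 counts in controls and 1, 2 and 5 in MNP samples. Of 5 tested genes listed around receptors and hydrolases of resolving lipid mediators 0 rose and 2 fell (median log2 fold change -0.74). Cmklr1, a chemerin receptor, went from 17.5 ± 2.18 to 10.5 ± 1.31 scaled CPM (log2 fold change -0.74 ± 0.13, edgeR adjusted p = 0.00126). Fpr1, a formyl peptide receptor, went from 1.64 ± 0.148 to 0.592 ± 0.262 scaled CPM (-1.45 ± 0.43, edgeR adjusted p = 0.0334). The call of Fpr1 was lost when any 1 of the 6 libraries was left out, with adjusted p up to 0.114. Fpr2 of the same list, named after its values were seen, did not pass (edgeR adjusted p = 0.291).

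Within the MAPEG family 3 of 6 genes rose and 0 fell, beside 9.11% higher and 8.35% lower over all tested genes. All but Ptges are among the 8 genes, so these 3 are the calls given above for Alox5ap, Mgst1 and Mgst2. All 6 log2 fold changes were above 0, from 0.28 to 1.67 (median 0.94, against -0.01 over all tested genes), but those of Ltc4s, Mgst3 and Ptges did not pass. The sixth member, Ptges, was at 1.14 ± 0.436 and 1.95 ± 0.482 scaled CPM and did not pass (edgeR adjusted p = 0.206). The soluble glutathione transferases were counted alongside them. Of 14 tested, 5 rose and 1 fell, with a median log2 fold change of 0.18. Gstm1 rose from 75.5 ± 7.81 to 179 ± 16.9 scaled CPM (1.24 ± 0.08 on the log2 scale), Gsta3 had a log2 fold change of 4.32 ± 0.15 and Gsto1 one of 0.49 ± 0.07. Gsta4 rose to 1.47 ± 0.428 scaled CPM from near the counting limit. Hpgds, the prostaglandin D2 synthase of this group, fell by 0.33 on the log2 scale and, like Gstp1 (1.12 ± 0.31), was named after its values were seen. Near-identical copies make the separate counts of Gsta, Gstm and Gstp genes uncertain.

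Neutrophils, mast cells, eosinophils and basophils are also known for leukotriene genes, so their markers were read beside the 8 genes. Of 9 tested neutrophil markers 0 rose and 5 fell, at a summed level of 185 to 274 scaled CPM in controls and 135 to 154 in MNP samples for all 10 listed, while Ly6g had at most 2 counts in any library. Of 2 tested mast cell markers 1 rose and 0 fell, and the 8 listed summed to 9.63 to 14.1 scaled CPM in controls and 16.9 to 20.0 in MNP samples. That sum was carried by Kit, the stem cell factor receptor, which rose (9.90 ± 1.48 and 16.8 ± 1.82 scaled CPM). Hdc, the histamine-forming enzyme, had 19, 49 and 31 counts in controls and 14, 12 and 15 in MNP samples and did not pass (log2 fold change -1.17, edgeR adjusted p = 0.0854). Cma1 was at 0 in all libraries, and Fcer1a and Mcpt4 had no more than 3 counts. Of 3 tested eosinophil markers 1 fell (20.2 to 27.6 against 13.0 to 16.1 scaled CPM for the 6 listed), as did 1 of 2 tested basophil markers (4.58 to 6.57 against 2.89 to 3.48 for the 4 listed). Their part in the values of the 8 genes was not tested.

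The calls of the 8 genes depended little on the settings tried. Alox5ap, Mgst1 and Cysltr1 kept their direction and stayed past the threshold in all 14 other settings, and Mgst2 in the 13 in which it was tested. Across these settings the log2 fold change ran from 0.78 to 0.91 for Alox5ap, from 1.08 to 1.23 for Mgst1, from 1.57 to 1.76 for Mgst2 and from -0.49 to -0.37 for Cysltr1. Without MNP sample 1, the library that stood apart on the second principal component, the 4 calls were the same.

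**Figure D4:**
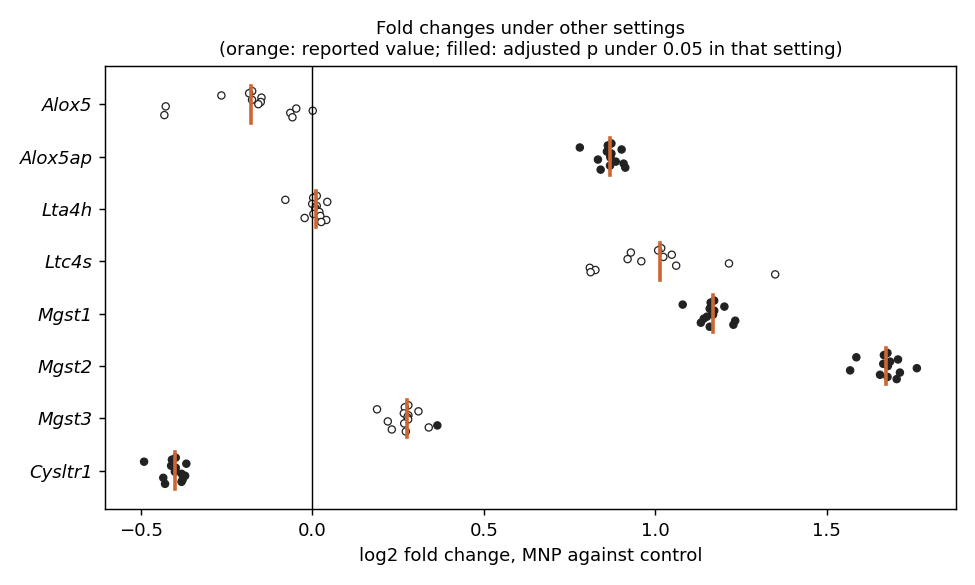
Log2 fold change of the 8 genes (horizontal axis) as reported (orange bar) and under each other scaling, filter, test, block or omitted library (points, filled where the adjusted p was under 0.05). Points of Alox5ap, Mgst1, Mgst2 and Cysltr1 are all filled, those of Mgst3 are open except without control 3, and those of Alox5, Lta4h and Ltc4s are all open.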

How the data were processed

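RNA of 3 control and 3 MNP samples was sequenced from CORALL RNA-seq V2 libraries, per the labels' protocols. The authors deposited whole-number counts per gene symbol. The submitters' processing notes name GATK, STAR, Salmon, fastp and the build GRCm39, without roles or versions. Not given in the sources used here are the annotation, strand setting, molecular identifiers and any rounding of estimates. Replicate pairs differed beyond counting error (chi-square per degree of freedom 6.65 to 17.6).

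Counts were analysed with edgeR 4.0.16 in R 4.3.3 (TMM factors, default expression filter, 12893 genes, quasi-likelihood test for MNP minus control, Benjamini-Hochberg adjustment, threshold 0.05). The SE of a log2 fold change was derived from the F statistic. Alternatives were RLE, upper-quartile or no scaling factors, no filter, a filter of 1 CPM in all 6 samples, DESeq2 1.42.0, limma-voom (limma 3.58.1), a replicate block, and omission of each library. A pseudocount of 0.5 CPM was an alternative for ratios.

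The 8 genes and the gene lists were chosen with earlier results of these data known. Named genes are the 8, up to 4 called genes with the smallest p of each list, Ptges, Pla2g4a, Ltb4r1, Abcc1 and Alox15, and the 3 nearest profiles of the top riser and faller. Exon lengths came from GENCODE M21 and sequences from RefSeq, both on GRCm38, matched by symbol. A planned comparison of MAPEG protein sequences was not done. The result for 1 gene of the lists is not reported here.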

Additional observations from a re-analysis of the deposited data

How the results depend on the processing

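Of the 8 genes, 3 rose and 1 fell, and these counts stayed between 2 and 4 and at 1 in all 14 other settings. The stricter filter did not test Alox5, Ltc4s or Mgst2. The sign of Alox5 turned without control 3 (range -0.43 to 0.0019 over omitted libraries) and that of Lta4h with library totals alone (log2 fold change -0.078) and without MNP sample 1 (range -0.022 to 0.041 over omitted libraries). Over all genes, 1174 were higher and 1076 lower, against 757 and 1941 with library totals alone. Leaving out 1 library gave 1471 to 2245 calls in place of 2250 (793 to 1241 higher, 672 to 1004 lower), fewest without MNP sample 2. Of the other list genes, 15 rose and 5 fell, with 11 to 16 and 2 to 5 when 1 library was left out and 9 lower with library totals alone. The cause of these shifts was not tested.

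The replicate block gave 2686 calls and changed no call of the 8 genes. Deviations of same-numbered samples correlated at 0.087, 0.028 and -0.022, not every sample correlated best with its own number, and the samples share only a number. Differences in the log2 ratios ran from 0.54 to 1.37 for Ltc4s to Lta4h, from -1.30 to -0.86 for Alox5 to Alox5ap and from 0.79 to 0.99 for Mgst1 to Mgst3. Paired by number, the ratio differences gave p = 0.25 in an exact sign-flip test, the smallest possible there. Alox5 and Ltc4s had at most 30 counts per library and Mgst2 at most 55, and their 95% intervals were the widest of the 8 genes.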
